A study of Mus musculus with 4 samples.

Results

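Transcript levels of the paired box genes Pax3 and Pax7 and of the 4 myogenic regulatory factors, Myf5, Myod1, Myog and Myf6, were examined in cultured mouse primary myoblasts. The 6 genes were taken by name, and all 6 were among the 24445 genes measured. RNA had been sequenced from 2 WT and 2 Tet2 KO libraries on the C57BL/6 background. Tet2 KO myoblasts carry a germline deletion of exon 3 of Tet2, a dioxygenase that oxidises 5-methylcytosine in DNA, so every cell type of the animal lacked that exon. Young adult males were used in the study unless its methods say otherwise, and whether each library came from its own animal was not stated. In both groups satellite cells of hindlimb muscle carrying CD34 and integrin alpha 7 but not CD45, CD11b, CD31 or Sca1 had been sorted, then grown on collagen in proliferation medium for at least 3 days. No differentiation medium was applied. Each gene had 1 pooled FPKM value per group (fragments scaled to transcript length and to the number of mapped fragments), so no value below has a replicate error, no test between groups could be made, and every difference describes these pools.

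Skeletal muscle is built through an ordered series of transcription factors. Pax3 and Pax7 are homeodomain proteins that specify muscle progenitors in the embryo, and Pax7 marks the satellite cells of adult muscle. Myf5 and Myod1 commit these cells to the muscle lineage and are expressed in dividing myoblasts, whereas Myog (myogenin) and Myf6 (Mrf4) act later, during differentiation into myotubes. The 4 myogenic regulatory factors are basic helix-loop-helix proteins that pair with E proteins and bind E-boxes, short DNA elements with the letters CANNTG.

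Sequences around Myog are shown first, because Myog was the gene of this family that differed most between the groups. Its promoter window, from 250 bases before to 50 bases after the start of the gene (RefSeq, GRCm38.p6, chromosome 1, 134289754 to 134290053, plus strand), held 2 E-boxes and 1 MEF2-type element, which are printed in capitals. The Myf5 window (RefSeq, GRCm38.p6, chromosome 10, 107486085 to 107486384, minus strand) is printed for comparison, with matches to the same letter patterns in capitals. Of the 6 genes, 3 (Pax7, Myf5 and Myog) had a RefSeq promoter entry in the reference used here; Pax3, Myod1 and Myf6 had none.
Myog promoter: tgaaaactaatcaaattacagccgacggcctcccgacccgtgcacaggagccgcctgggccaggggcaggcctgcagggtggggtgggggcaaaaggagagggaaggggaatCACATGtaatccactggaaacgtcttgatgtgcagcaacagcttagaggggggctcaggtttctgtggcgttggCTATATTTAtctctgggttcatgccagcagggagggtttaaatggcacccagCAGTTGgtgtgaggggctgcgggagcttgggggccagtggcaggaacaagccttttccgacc
Myf5 promoter: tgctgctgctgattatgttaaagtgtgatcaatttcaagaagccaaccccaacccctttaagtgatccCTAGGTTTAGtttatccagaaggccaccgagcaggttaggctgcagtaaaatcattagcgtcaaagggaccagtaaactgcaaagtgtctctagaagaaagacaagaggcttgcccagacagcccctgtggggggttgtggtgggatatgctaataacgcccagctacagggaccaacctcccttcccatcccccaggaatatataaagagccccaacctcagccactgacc
The E-box nearest to the start of Myog, cagttg, began 12 bases before it and the other, cacatg, 138 bases before it. The MEF2-type element of Myog, ctatattta, began 64 bases before the start. The MEF2-type element was searched as CTANNNNTA on both strands, with any letter allowed at each N. The letters at these positions were tatt in Myog and ggtt in Myf5, so the matches share the pattern only. In the Myf5 window the pattern matched on both strands over the same overlapping bases, 182 bases before the start, and the Myf5 and Pax7 windows held no CANNTG. Among 32851 promoter windows of the same length, 72.3% held a CANNTG, 13.7% held CAGTTG on either strand and 21% held a CTANNNNTA. CpG dinucleotides, the sites of methylation, numbered 9 in the Myog window, 3 in that of Myf5 and 17 in that of Pax7, beside a median of 7 over all windows. These matches describe letters only and show no binding.

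The study also examined an upstream segment of Myog that it named E2. The cloning primers of E2, without their restriction tails, matched the mouse genome build mm9 on chromosome 1 from 136173233 to 136173663, 431 bases that lie 13348 to 12918 bases upstream of the first base of Myog. The segment E1, which overlaps its end, was placed in the same way from 136173648 to 136173985. E2 held 7 CpG sites and 1 CANNTG, and E1 held 9 CpG sites and 2 CANNTG elements. The first 300 bases of E2 are printed here (mm9, chr1:136173233-136173532, plus strand), with CpG sites and the CANNTG in capitals, to show the spacing of the E-box and the 5 of the 7 CpG sites that lie in these bases.
Myog E2: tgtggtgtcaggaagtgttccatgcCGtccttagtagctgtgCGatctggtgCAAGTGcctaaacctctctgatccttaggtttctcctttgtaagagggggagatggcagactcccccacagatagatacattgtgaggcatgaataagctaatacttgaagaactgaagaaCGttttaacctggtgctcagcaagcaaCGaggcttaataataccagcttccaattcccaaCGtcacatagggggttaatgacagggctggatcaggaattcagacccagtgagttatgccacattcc
The CANNTG of E2, caagtg, began at 136173285, and 8 bases separated it from the nearest CpG. Over the 20 kb upstream of Myog there were 12.5 CpG sites and 5.8 CANNTG elements per kb. RNA was the only measurement analysed here, so neither methylation nor binding at these sequences is reported.

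The 4 myogenic regulatory factors share the part of their messages that codes for the DNA-binding and dimerisation domain. The longest stretch of identical letters between annotated transcripts was 26 bases for Myf5 and Myod1, in the basic region, and 21 bases for Myod1 and Myog, in the helix-loop-helix. Both are printed to show how short the identical runs are.
Myf5 and Myod1: cgcaaggccgccaccatgcgcgagcg
Myod1 and Myog: aaagtgaatgaggccttcgag
No run of 50 bases in the annotated transcripts of Pax7, Myf5, Myod1, Myog or Myf6 occurred in a protein-coding transcript of any other gene, in either direction. Pax3 had 16 such runs of 3864.

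The levels spanned more than 3 orders of magnitude. Myog, on chromosome 1 from 136186581 to 136189125 with 3 exons in the GENCODE vM1 annotation, had 554 FPKM in WT and 268 FPKM in Tet2 KO. Myod1, on chromosome 7 from 53631844 to 53634462 with 3 exons, had 336 FPKM in WT and 313 FPKM in Tet2 KO. Myog was thus the most abundant of the 6 messages in WT and stood below Myod1 in Tet2 KO. Myf5, on chromosome 10 from 106919964 to 106923190, had 61.8 FPKM in WT and 57.4 FPKM in Tet2 KO. Pax7, on chromosome 4 from 139293996 to 139388883, had 11.1 FPKM in WT and 11.0 FPKM in Tet2 KO. These 4 genes were clearly expressed in both pools. Myf6, which lies 6.73 kb from Myf5 on chromosome 10, from 106929916 to 106931785, was near the lower limit used here, with 1.67 FPKM in WT and 1.33 FPKM in Tet2 KO. Pax3, on chromosome 1 from 78097842 to 78193711, had 0.275 FPKM in WT and 0.231 FPKM in Tet2 KO. It was the 1 member below a mean of 1 FPKM, and the other 5 reached that level.

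**Figure D1:**
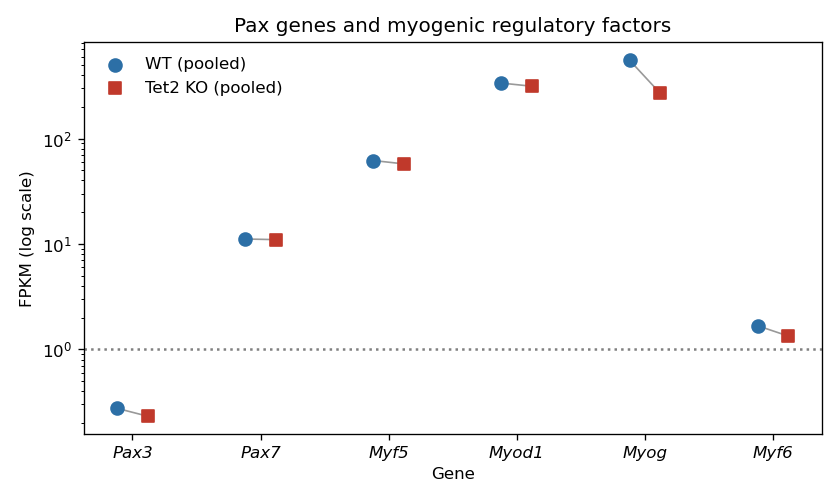
Pooled expression of the 6 genes in FPKM on a log axis, with WT as circles and Tet2 KO as squares; the dotted line marks 1 FPKM. Myog has 554 FPKM in WT and 268 FPKM in Tet2 KO, while the 2 points of Pax7, Myf5 and Myod1 lie close to each other.

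In WT the order was Myog, Myod1, Myf5, Pax7, Myf6 and Pax3, and in Tet2 KO Myog and Myod1 changed places while the rest of the order held. Without replicate values it cannot be said whether these 2 neighbours differ beyond their spread in either group. Myog had 1.65 times the level of Myod1 in WT and 0.856 times in Tet2 KO. By contrast, Myod1 had 5.43 times the level of Myf5 in WT and 5.45 times in Tet2 KO, and Myf5 had 5.55 and 5.23 times the level of Pax7. The ratios among the early factors thus differed little between the pools, and those that include Myog did. The 4 myogenic regulatory factors summed to 953 FPKM in WT and 640 FPKM in Tet2 KO, and Myog made up 58.1% of that sum in WT and 41.9% in Tet2 KO. Myod1 made up 35.2% and 48.9%, Myf5 6.49% and 8.97%, and Myf6 0.176% and 0.208%. Of the difference between the sums, the difference in Myog was 286 FPKM, that in Myod1 22.3 FPKM and that in Myf5 4.37 FPKM.

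**Figure D2:**
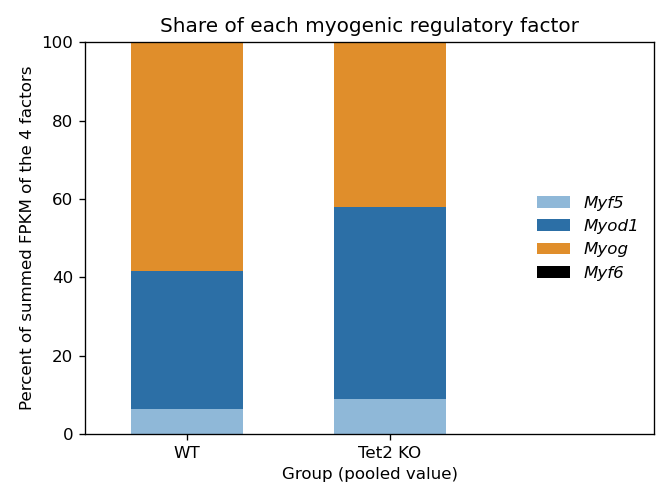
Share of each myogenic regulatory factor in the summed FPKM of the 4 factors, in percent, for the pooled WT and Tet2 KO values. Myog takes 58.1% of the bar in WT and 41.9% in Tet2 KO, and Myf6 is too low to be seen.

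Differences between the groups were taken as log2((Tet2 KO FPKM + 1) / (WT FPKM + 1)), in which a negative value means lower in Tet2 KO. This log2 ratio was -1.04 for Myog, a level 2.06-fold lower in Tet2 KO. It was -0.10 for Myod1, -0.10 for Myf5 and -0.02 for Pax7, and -0.20 for Myf6 and -0.05 for Pax3. All 6 values were negative, and 51.2% of the 11692 genes with a mean of at least 1 FPKM had a negative value too. The added 1 understates the ratio of the 2 rare messages, which without it was -0.33 for Myf6 and -0.25 for Pax3. In FPKM, Myf6 was 20.3% lower and Pax3 15.9% lower in Tet2 KO. Among the 1743 genes with a mean between 1 and 3 FPKM, 45.4% had a log2 ratio at least as far from 0 as that of Myf6.

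Counts at 2-fold, here and below, use the log2 ratio with 1 added to each FPKM, at or past -1 or 1. Only Myog of the 6 genes was at least 2-fold lower in Tet2 KO, and none was at least 2-fold higher. Of the 11692 genes with a mean of at least 1 FPKM, 1.21% were at least 2-fold lower and 2.08% at least 2-fold higher. Myog lay just past this limit. Of the 935 genes with a mean of at least 100 FPKM, 1.28% (12 genes, Myog included) were at least 2-fold lower and 0.856% at least 2-fold higher. Of these 12 lower genes 9 were on the list of differentiation targets described below, which was drawn up with earlier results of these data known. Of the early factors, Myod1 lay in the middle of all genes, since 49.8% of the 11692 genes had a log2 ratio as close to 0 as that of Myod1 or closer. These genes are of all levels from a mean of 1 FPKM up, and no share was taken among genes at the level of Myod1.

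**Figure D3:**
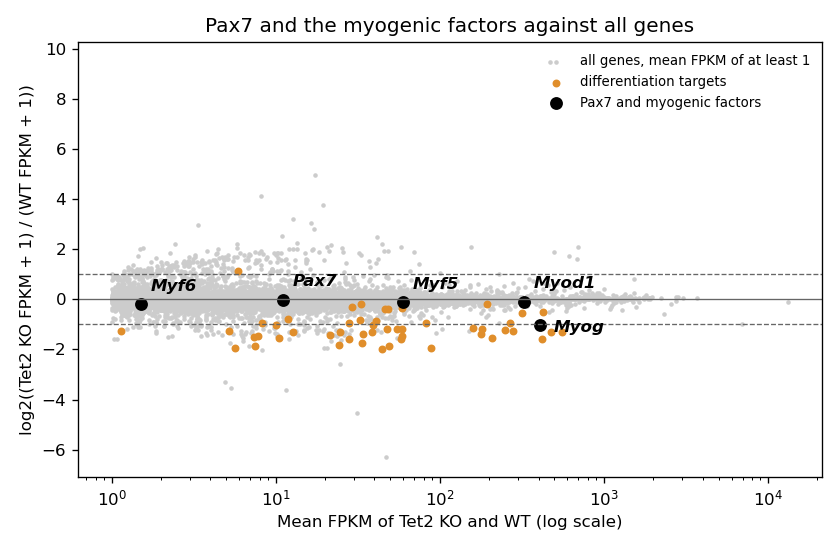
Log2 ratio of Tet2 KO over WT (with 1 added to each FPKM) against mean FPKM on a log axis, for all genes with a mean of at least 1 FPKM in grey, the differentiation targets in orange, and Pax7 and the 4 myogenic regulatory factors in black; dashed lines mark 2-fold. Myog at -1.04 sits among the orange points, and Myod1, Myf5 and Pax7 sit within the grey band around 0.

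The late factors were set against the early ones, a difference of log2 ratios within the same pools that scaling of a whole column leaves almost as it is. The log2 ratio of Myog was lower than that of Pax7 by 1.03, that of Myod1 by 0.94 and that of Myf5 by 0.94. For Myf6 the same differences were -0.18 against Pax7, -0.10 against Myod1 and -0.09 against Myf5. The median of the late pair minus the median of the 3 early factors was -0.52, a value that stands for neither gene, since Myog and Myf6 were 0.85 apart. The 2 late factors therefore did not share 1 size of difference, and at 1.67 FPKM or less Myf6 gives little precision.

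Libraries could differ in their make-up, and in bulk RNA fewer cells of a type and less RNA per cell cannot be told apart. The labelled cell type was checked first. Myod1, Myf5, Pax7, Des, Cdh15 and Itga7, the markers set for myoblasts, were present in both pools, from 11.0 FPKM for Pax7 to 449 FPKM for Des. Myod1, Myf5 and Pax7 are themselves among the genes under study, so only Des, Cdh15 and Itga7 are a separate check. The lowest value of these was 84.3 FPKM, for Cdh15 in Tet2 KO. All 14 leukocyte markers were higher in Tet2 KO, 12 of them at least 2-fold, although the sort was negative for CD45 and CD11b. Cd68 and Laptm5 fell short of that limit only through the added 1, being 2.11-fold and 2.15-fold higher in FPKM. The 14 leukocyte markers summed to 132 FPKM in WT and 521 FPKM in Tet2 KO. The median of their log2 ratios was 1.64, none was at 0, and Ptprc, the gene of CD45, had 1.36 and 5.67 FPKM. In the same pools Myod1, Myf5 and Pax7 were at -0.10, -0.10 and -0.02. The part of the leukocyte transcripts in these values and in the lower Myog level was not tested. Endothelial markers were low, with 2 of 8 at a mean of at least 1 FPKM and sums of 9.93 FPKM in WT and 8.83 FPKM in Tet2 KO. Of 10 fibroblast markers 7 reached that mean, 6 of them higher in Tet2 KO, with sums over the list of 454 FPKM in WT and 493 FPKM in Tet2 KO. None was 2-fold different with the added 1, but without it Dcn was 2.23-fold higher, with 3.15 FPKM in WT and 7.04 FPKM in Tet2 KO. Ly6a, the gene of Sca1, made up most of both sums, with 278 FPKM in WT and 288 FPKM in Tet2 KO, although the sort was negative for Sca1. No endothelial or fibroblast marker was at 0 in both pools. Tet2 itself had 6.64 FPKM in WT and 5.79 FPKM in Tet2 KO, a value over all exons that does not check the deletion of 1 exon.

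Partners of the myogenic regulatory factors were compared next. Of 13 such genes (E proteins, Mef2 factors and other transcription factors of muscle), 10 were lower and 3 higher in Tet2 KO, the median of their log2 ratios being -0.27. The median over all 11692 genes was -0.004. Mef2c, which acts with the myogenic factors on muscle genes, was the 1 partner at least 2-fold lower, with 27.8 FPKM in WT and 11.1 FPKM in Tet2 KO (log2 ratio of -1.26); the study had picked Mef2c from these libraries. Pitx3 was the highest partner, at 0.29. The E protein Tcf3, with which myogenic factors form dimers, had 41.2 FPKM in WT and 43.7 FPKM in Tet2 KO, and Tcf12 had 76.3 and 70.8 FPKM.

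Inhibitors of the myogenic factors showed no 2-fold difference. Of 14 inhibitors, 12 reached a mean of 1 FPKM, 9 of them higher and 3 lower, with a median of 0.05. Id1, Id2 and Id3, which hold E proteins away from the myogenic factors, were the most abundant. Id1 had 421 FPKM in WT and 465 FPKM in Tet2 KO, Id2 had 172 and 197 FPKM, and Id3 had 565 and 525 FPKM. Twist1, which opposes myogenic differentiation, was highest at 0.58 but low in level, with 1.41 FPKM in WT and 2.60 FPKM in Tet2 KO. Snai2 was next at 0.21. The lowest were Hey1, a Notch target, at -0.39 and Id3 at -0.10.

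Genes known to act below Pax3 and Pax7 lay near Pax7 itself. The 6 genes of this list had a median of -0.06, from -0.16 for Trim32 and -0.12 for Fgfr4 to 0.02 for Met and 0.06 for Dmrt2. Met, the receptor for hepatocyte growth factor, had 90.5 FPKM in WT and 91.7 FPKM in Tet2 KO. Of 10 early lineage genes, structural and surface genes already on in myoblasts, 9 reached a mean of 1 FPKM, with a median of -0.21 and none 2-fold different. Ncam1 at -0.65 and Megf10 at -0.42 were lowest, and Vcam1 at 0.28 and Sdc4 at 0.24 were highest.

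Differentiation targets, genes of the contractile apparatus, calcium handling, the neuromuscular synapse and fusion that myogenic factors are known to act on, lay near Myog. Of 50 genes, 49 were lower and 1 was higher in Tet2 KO, with 34 at least 2-fold lower, 1 at least 2-fold higher and a median of -1.26. The study had chosen 10 of the 50 on these libraries, so their direction is no independent evidence. Among the other 40, 26 were at least 2-fold lower, with a median of -1.24. These 40 were also listed with earlier results of these data known, so they are no independent evidence either. Csrp3, the gene of muscle LIM protein, had 71.1 FPKM in WT and 17.3 FPKM in Tet2 KO (-1.98). Casq1, a calcium store protein, had 9.59 and 1.76 FPKM (-1.94). Ankrd2, a stretch-responsive ankyrin repeat gene, was the 1 gene higher, with 3.34 FPKM in WT and 8.49 FPKM in Tet2 KO (1.13). Chrna1, the alpha subunit of the acetylcholine receptor, had 206 and 181 FPKM (-0.19). Subunits of this receptor differed among themselves, since Chrng was at -1.04 while Chrnb1, Chrnd and Chrna1 were at -0.40, -0.19 and -0.19.

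Genes of cell-cycle exit, which accompanies the onset of Myog, and of proliferation showed small differences. Of 6 exit genes, 5 were lower, with a median of -0.14. The cyclin-dependent kinase inhibitor Cdkn1a had 53.7 FPKM in WT and 36.2 FPKM in Tet2 KO (-0.56), Rb1 was next at -0.39, and Cdkn2c at -0.03 and Ccnd3 at 0.03 were highest. All 10 proliferation genes were slightly higher in Tet2 KO, from 0.02 for Cdk1 and 0.04 for Ccnb1 to 0.18 for Aurkb and 0.30 for Mki67, with a median of 0.09. No gene of either list reached 2-fold. Of 20 housekeeping genes the median was 0.01, with Rplp0 at -0.15 and Eif4a2 at -0.14 the lowest. The highest was Rps18 at 2.08, with 266 FPKM in WT and 1129.7 FPKM in Tet2 KO, a ribosomal protein gene with many processed copies whose value is uncertain.

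**Figure D4:**
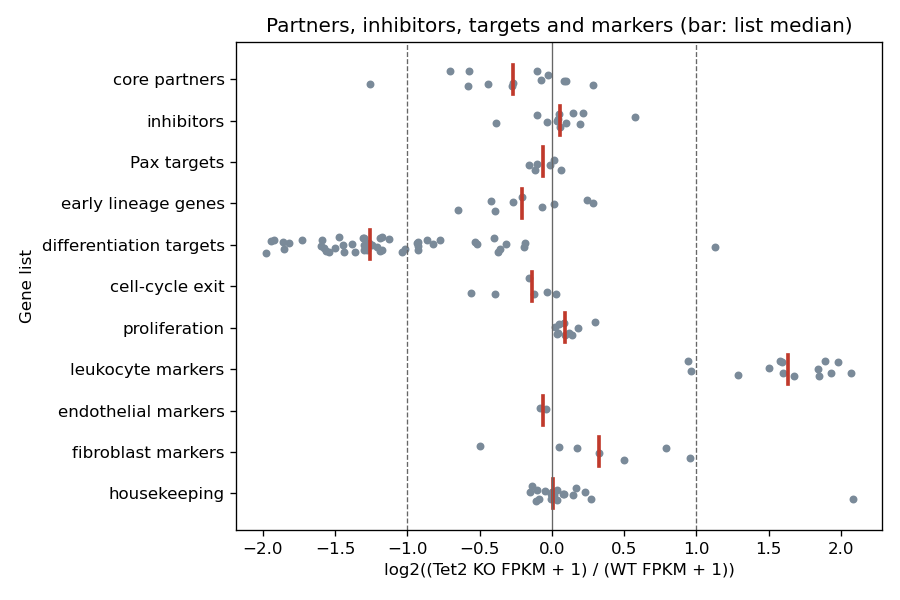
Log2 ratio of Tet2 KO over WT (with 1 added to each FPKM) for each gene with a mean of at least 1 FPKM, by list, with the list median as a vertical bar and 2-fold as dashed lines. The differentiation targets centre on -1.26 and the leukocyte markers on 1.64, while the medians of all other lists lie between -0.27 and 0.32.

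The genes closest to each member in both pools were sought as the shortest distance in the plane of log2(FPKM + 1) in WT and in Tet2 KO, over these 2 pooled values. For Myog they were Myl4, an embryonic myosin light chain, at a distance of 0.30 log2 units, Eno3, the muscle enolase, at 0.41, and Acta1, skeletal alpha-actin, at 0.41. Myl4 had 681 FPKM in WT and 274 FPKM in Tet2 KO. No gene lay within 0.1 log2 units of Myog. For Pax7 194 genes lay within that distance, Fam135a, Zfp386 and Fbxo21 being closest. For Myf5 68 genes did (Skiv2l2 and Gtf2h5 among the closest), for Myod1 6 (Psmb7, Ctnnb1 and Ppib closest), and for Myf6 44 (Aldh3a1, Zfp438 and Gm10509 closest). With 2 values per gene, closeness reflects level and ratio alone. The counts also depend on how many genes have such a level, since 935 of the 11692 genes had a mean of at least 100 FPKM, as Myog and Myod1 did. They are therefore not comparable between members.

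The chromosomal surroundings of the members were examined after their values were seen, over genes whose first listed base lay within 150 kb. The first listed base is the lowest coordinate of a gene whatever its strand, so it need not be where transcription starts. Around Myog 7 genes had a mean of at least 1 FPKM, and 3 of them were at least 2-fold lower in Tet2 KO. Over all genes with such a mean the share was 1.21%, and whether the surroundings of Myog differ from it was not tested. Ppfia4, whose first listed base lies 6.78 kb downstream of that of Myog, had 8.21 FPKM in WT and 3.36 FPKM in Tet2 KO (-1.08). Mybph, the gene of myosin-binding protein H, had 82.0 and 27.6 FPKM (-1.54), and Adora1, which the deposited table lists at the same merged locus as Mybph, had 5.71 FPKM in WT and a log2 ratio of -1.07. The first listed base of this pair lies 96.6 kb upstream. Tmem183a, Cyb5r1 and Adipor1, from 56.1 to 125 kb downstream, were at -0.08, -0.26 and -0.05, and Chil1, 108 kb upstream, was at 0.65. Around Myf5 and Myf6 no gene but the pair itself reached 1 FPKM, and around Myod1 and Pax7 no gene that did was 2-fold different. Gm45923, whose first listed base lies 5.07 kb upstream of that of Myod1, had a mean just under 1 FPKM, with 1.67 FPKM in WT and 0.173 FPKM in Tet2 KO.

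**Figure D5:**
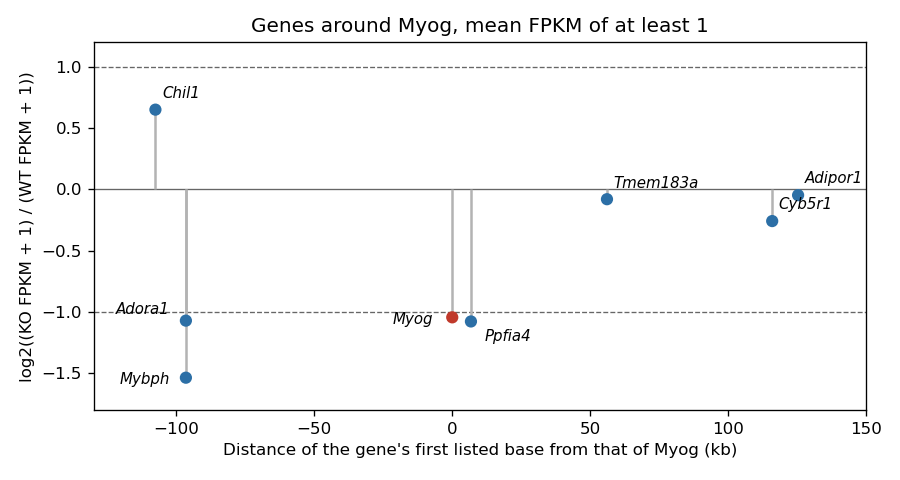
Log2 ratio of Tet2 KO over WT (with 1 added to each FPKM) of Myog and the 7 genes around it with a mean of at least 1 FPKM, against the distance of the first listed base from that of Myog in kb; dashed lines mark 2-fold. Ppfia4, Mybph and Adora1 lie past the lower line with Myog, and the 4 other genes do not.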

How the data were processed

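RNA of 2 WT and 2 Tet2 KO myoblast cultures was measured with TruSeq libraries made from total RNA. Per the study's methods and the submitters' processing notes, the authors trimmed reads, aligned pairs to mm9 with TopHat2 2.0.13 and ran Cuffdiff 2.2.1; the gene annotation was not given in the sources used here. The deposited table holds 1 FPKM value per gene and group, which combines its libraries. It also holds the authors' own comparison, namely a deposited log2 ratio, a deposited test score and deposited p-values and q-values, none of which was used. Depth is unknown, so no counting interval was given.

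Log2 ratios were computed from the FPKM values with a pseudocount of 1, and genes with a mean of at least 1 FPKM were counted at 2-fold. No test was run, since a group has 1 value. Starts were raised by 1 because the table counts from 0. Named genes were the 6 members, the 3 closest genes of each, and the 2 lowest and 2 highest of each list with those past 2-fold where at most 5; some genes this rule names are not reported here. Further partners, inhibitors, receptor subunits, Ptprc, Ly6a and neighbours were chosen after their values were seen. The members and lists were chosen with earlier results of these data known. Python 3.11.15, numpy 2.4.6, pandas 2.3.3 and matplotlib 3.10.9 were used. The ratio calculation was tried on simulated data without a pseudocount and with changes well past 2-fold. That trial does not cover the pseudocount of 1 or genes near the limit. Alternatives were other pseudocounts, filters, folds and scalings.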

Additional observations from a re-analysis of the deposited data

How the results depend on the processing

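No paired analysis was possible because the table holds 1 pooled value per group, and for the same reason no library could be left out. No result changed sign among those at least 2-fold different. The log2 ratio of Myog ran from -1.05 to -1.04 over pseudocounts of 0.1 and 0, TPM, median centring and centring on housekeeping genes, and the median of the differentiation targets stayed within 0.1 of its value, also without the study's own genes. These scalings moved the median of all genes by less than 0.1. The counts of 142 genes at least 2-fold lower and 243 higher depend on the settings. A pseudocount of 0.1 gave 215 lower and 334 higher, and none gave 224 and 341. With a mean of at least 5 FPKM, where low genes were removed, 106 were lower and 109 higher, so the excess of higher genes was nearly gone. A 1.5-fold limit gave 338 lower and 435 higher, and a 3-fold limit, which Myog did not reach, gave 25 and 81. The late minus early difference of -0.52 was -0.94 with a mean of at least 5 FPKM, which leaves out Myf6, -0.94 with Myog alone and -0.10 with Myf6 alone. Low FPKM limits Myf6 and Pax3 most.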
